A study of Papio with 24 samples.

Results

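The data described here are the omental arrays of a study of cultured fetal baboon fat progenitors, in which 4 fetuses of nutrient-restricted mothers were compared with 4 fetuses of control mothers. They are 8 of the 24 arrays in the study, chosen by their label as omental cells, and the comparison is restricted minus control. The other 16 arrays read subcutaneous abdominal and subcutaneous femoral cells of the same 8 fetuses. The fetuses were 165 days into a gestation that lasts 184 days in the baboon. Control mothers fed without limit and restricted mothers received a diet cut by 30% through the whole pregnancy. The control fetuses are labelled control_9017, control_9087, control_8011 and control_8009, and the restricted fetuses restricted_9085, restricted_2820, restricted_9075 and restricted_9073. There was 1 male in each group, control_9017 and restricted_9085, beside 3 females. Cells of both groups were freed with collagenase, grown to confluence in αMEM with fetal bovine serum, frozen, thawed and regrown, and the RNA of 3 wells was pooled into 1 array per fetus. Each value therefore stands for 1 fetus, and it describes a passaged culture and not fat tissue. The question of the study, from its title, is whether the effects of restriction depend on the depot.

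Omental fat is visceral fat that hangs from the stomach and drains toward the liver. Its stromal progenitors can divide, lay down collagen matrix and, given hormonal cues, turn on PPARG and the CEBP factors and become fat cells. In cell culture without those cues they stay fibroblast-like. Restriction of the mother's diet is a widely used model of poor fetal nutrition, and imprinted genes, which are read from a single parental copy, include several that set fetal growth.

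Levels below are log2 normalised intensities, the brightness of a bead probe after background modelling and quantile normalisation, so a difference of 1 is a doubling. Probes carry the names of human genes, and how well each one binds its baboon transcript was not assessed. A probe counted as detected on an array where its detection p was under 0.05, and 16933 of 48803 probes, detected on at least 4 of the 24 arrays, were tested. Per-array values are always listed in the fetus order given above, controls first. The diets do not overlap when all 4 arrays of one lie above all 4 of the other. Tests are limma's moderated tests with Benjamini-Hochberg adjustment over all 16933 probes, and a probe is called at an adjusted p under 0.05.

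Control arrays detected 13481 to 14263 probes and restricted arrays 13102 to 13545, with mean signals of 176.6 to 200.3 and 148.1 to 182.8. The array of restricted fetus restricted_2820 stood apart: its median correlation with the other arrays of its group was 0.9795, the lowest of the 8, and its root mean square deviation from its group mean was 0.295, against 0.196 to 0.245 for the rest. For many of the lists and genes that this array moved, the value without it is also given. RPS4Y1, on the Y chromosome, read 12.50 and 12.24 in the males and 4.75 to 5.06 in the females, which matched the labels of all 8 arrays. The cells carried most markers of stromal progenitors. Of 16 such genes, 12 were detected on all 8 arrays, among them the growth factor receptor PDGFRA, the collagen genes COL1A1 and COL3A1, decorin (DCN) and vimentin (VIM), while THY1 and ALCAM were detected on none and ENG on 1. Of 15 tested stromal markers, 10 lay higher and 5 lower in restricted cells, with a median difference of 0.047, and VIM (0.15 ± 0.11, SE) and ITGB1 (0.14 ± 0.11, but -0.02 with median scaling of the arrays) differed by little more than their errors.

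No gene passed the adjusted threshold in omental cells. Limma called 0 of 16933 probes (0%), with a lowest adjusted p of 0.309, and 804 probes (4.75%) had an unadjusted p under 0.05, of which 366 (2.16%) were higher and 438 (2.59%) lower in restricted cells. The groups did not overlap for 478 probes (2.82%), 214 higher (1.26%) and 264 lower (1.56%). With 1 probe per gene, 48.2% of 10228 genes were higher, the median difference was -0.007, and 2.42% were higher and 2.85% lower at an unadjusted p under 0.05, which is the background for every gene list below. Typical differences were small beside their errors: the median absolute difference was 0.0892 and the median standard error of a difference 0.121. A difference of at least 1 was seen for 64 probes (0.378%), 41 higher and 23 lower, and 11 of these had groups that did not overlap. When each fetus was left out in turn, between 451 and 548 of the 804 probes kept an unadjusted p under 0.05, and 242 did so in all 8 rounds, 118 higher and 124 lower. All 24 genes with the smallest p described below, 12 higher and 12 lower, were among those 242. They were picked for their small p on these same arrays, so this is not separate evidence that they are stable. The smallest p of all, 1.82e-05, belonged to a probe with no gene symbol in the annotation used (ILMN_1671054), which read 7.99, 7.70, 8.21 and 7.79 in controls and 9.75, 9.91, 9.63 and 8.94 in restricted cells, a difference of 1.64 ± 0.21.

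**Figure D1:**
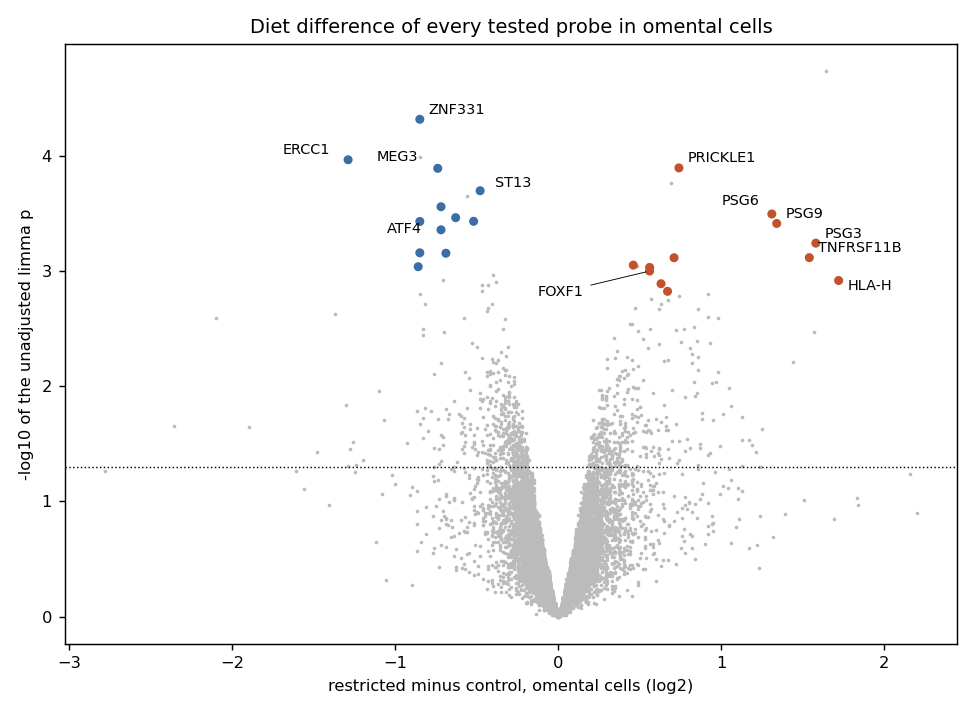
Every tested probe by its restricted minus control difference in omental cells (x axis, log2) and the negative log10 of its unadjusted limma p (y axis). The coloured points are the 12 genes higher (orange) and 12 lower (blue) with the smallest p, the dotted line marks an unadjusted p of 0.05, and no point passed after adjustment over 16933 probes.

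Pregnancy-specific glycoproteins had the highest median difference of the 28 gene lists examined in omental cells. These secreted proteins of the immunoglobulin superfamily are made in bulk by the placenta, and their genes are close copies of each other, so a probe may read more than the gene it is named for. The array carried 10 of the 11 genes listed, and 5 passed the detection filter. Of these 5, 4 had groups that did not overlap and an unadjusted p under 0.05, all higher in restricted cells, where 2.77% of all genes did not overlap and 5.27% had such a p. These counts leave out the genes that were not detected, and the list was chosen with earlier results of these data known. PSG5, 1 of the 4, was detected on 0 omental, 1 abdominal and 1 femoral control array. Restricted arrays detected it on 4, 3 and 4, so it passed the filter only through the diet where it was higher. PSG3, PSG6 and PSG9 were detected on every control array. The median difference of the 5 tested genes was 1.308, where the median over 10228 genes was -0.007. PSG3 read 8.98, 8.69, 8.21 and 7.90 in controls and 10.45, 10.28, 10.19 and 9.18 in restricted cells. The lowest restricted array, of fetus restricted_9073, was only slightly above the highest control. The PSG3 difference was 1.58 ± 0.31 (SE, n = 4 and 4; limma adjusted p 0.566), or 2.98-fold.

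PSG9 read 7.65, 7.34, 6.91 and 6.84 in controls against 8.85, 8.55, 8.82 and 7.87, a difference of 1.34 ± 0.25 (limma adjusted p 0.433). PSG6 read 7.33, 7.09, 6.67 and 6.74 against 8.78, 8.25, 8.39 and 7.64, a difference of 1.31 ± 0.24 (limma adjusted p 0.433). In all of these genes the male led its own diet group, and fetus restricted_9073 was the lowest restricted array. PSG5 was dim, at 4.41 to 4.58 on control arrays, none of which detected it, and 4.83 to 5.33 on restricted arrays, all of which did, which puts restricted cells at least 1.23-fold above controls. A second, dim PSG3 probe was detected on 1 restricted array and no control array (at least 1.01-fold higher), and PSG2 was detected on none of the 8 arrays. The list's median stayed between 1.137 and 1.516 with any 1 fetus left out and was 1.313 without fetus restricted_2820. It was 0.935 over all tested probes of these genes and 0.044 when probes that failed the detection filter were included.

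Among signalling and adhesion genes, the decoy receptor TNFRSF11B and the planar polarity gene PRICKLE1 separated the diets. TNFRSF11B, or osteoprotegerin, is a secreted trap for the bone-resorption signal RANKL, and it read 8.56, 8.74, 8.67 and 8.39 in controls and 9.94, 10.30, 11.05 and 9.24 in restricted cells. Control arrays spanned less than the gap to the lowest restricted array, while restricted arrays were widely spread. The difference was 1.54 ± 0.32 (limma adjusted p 0.614), or 2.92-fold. PRICKLE1, a cytoplasmic part of the machinery that orients cells within a sheet, read 9.17, 9.66, 9.28 and 9.28 in controls and 10.15, 10.18, 9.94 and 10.08 in restricted cells, a difference of 0.74 ± 0.12 (limma adjusted p 0.357). Its restricted arrays lay within a narrow band (SD 0.10). ROR1, a receptor for noncanonical Wnt ligands, read 5.59, 5.32, 5.36 and 5.54 against 5.82, 5.88, 6.05 and 6.36, a difference of 0.57 ± 0.13 (limma adjusted p 0.746).

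The wider Wnt and planar polarity list did not share this direction. Of its 29 tested genes 14 were higher and 15 lower, with a median of -0.036 and a mean of 0.031, and 3 higher and 1 lower had an unadjusted p under 0.05. The lower one was AXIN2, a feedback inhibitor that canonical Wnt signalling induces, at 7.63, 8.01, 6.88 and 7.78 in controls and 7.34, 6.81, 6.91 and 6.04 in restricted cells (-0.80 ± 0.30, groups overlapping).

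The other genes with small p values and higher levels were mostly dim. PCDH10, a protocadherin of cell adhesion, read 4.60 to 5.07 in controls and 5.23 to 5.72 in restricted cells (0.71 ± 0.15), and its second probe differed by 0.74 ± 0.29. RASSF5, an effector of Ras-family proteins, differed by 0.63 ± 0.14 and was detected on all 8 arrays. NUAK2, a kinase related to AMPK, was detected on 0 control and 3 restricted arrays on 1 probe (at least 1.29-fold higher), whereas its other probe differed by -0.02 ± 0.12. ZNF671, a zinc finger gene, was detected on 2 restricted arrays and no control array (at least 1.05-fold higher). The limma adjusted p values of these 4 genes ran from 0.614 to 0.722. The first PCDH10 probe was detected on 1 omental, 0 abdominal and 1 femoral control array, and on 4, 3 and 2 restricted arrays. The NUAK2 and ZNF671 probes with the smallest p were detected on no control array of any depot. Like PSG5, these probes of PCDH10, NUAK2 and ZNF671 passed the filter only through the diet where they were higher.

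Among genes whose groups did not overlap, C19orf33 and NDNF had larger differences with wide spreads among restricted fetuses. C19orf33 read 4.48 to 4.92 in controls and 5.70, 5.23, 6.58 and 7.43 in restricted cells (1.57 ± 0.40, limma adjusted p 0.88). NDNF, a secreted glycoprotein first described as a neurotrophic factor, read 6.09 to 7.14 against 7.40, 7.34, 8.15 and 9.19 (1.44 ± 0.41, limma adjusted p 0.981). Here fetus restricted_9073 was the highest, the reverse of its place in the glycoprotein genes. SLC6A15, a transporter of neutral amino acids, owed much of its difference of 1.19 ± 0.47 to fetus restricted_2820 at 7.93, since the other restricted arrays read 5.42 to 6.19, and the difference was 0.64 without that fetus.

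**Figure D2:**
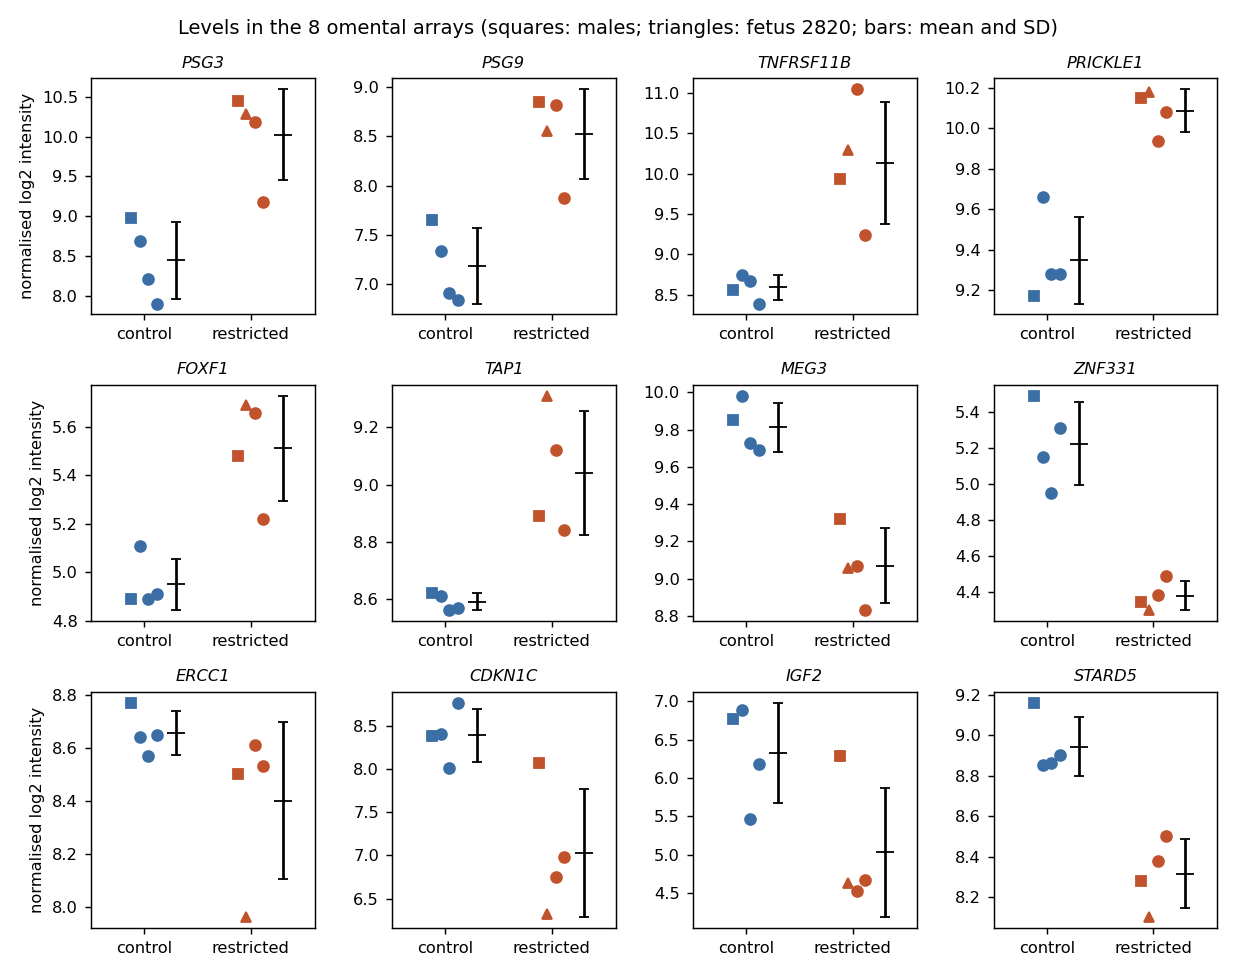
Normalised log2 intensity of 12 genes on the 8 omental arrays, control in blue and restricted in orange, with squares for the males, triangles for fetus restricted_2820 and black bars for the mean and SD of each group. Axes differ between panels. In the panels other than CDKN1C, IGF2 and ERCC1 no restricted array reaches the control range. In CDKN1C and IGF2 the restricted male lies within it. The ERCC1 panel shows a brighter probe than the one with the smallest p, and its groups overlap (females 8.57 to 8.65 in controls, 7.96 to 8.61 in restricted cells).

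Among the lower genes, several imprinted genes stood out, although the imprinted list as a whole did not lean one way. Of 19 tested genes 10 were higher and 9 lower, with a median of 0.030 and a mean of -0.232, since the lower ones differed by more. Unadjusted p values under 0.05 were reached by 5 genes, all lower. The per-array mean of the list was -0.132 to 0.065 in controls, relative to their own mean, and -0.388 to -0.026 in restricted cells.

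MEG3, a long noncoding RNA read from the maternal copy, was bright and separated the groups: it read 9.85, 9.98, 9.73 and 9.69 in controls and 9.32, 9.06, 9.07 and 8.83 in restricted cells. The difference was -0.74 ± 0.12 (limma adjusted p 0.357), with SDs of 0.13 and 0.20. ZNF331, an imprinted zinc finger gene, read 5.49, 5.15, 4.95 and 5.31 in controls and 4.34, 4.30, 4.38 and 4.49 in restricted cells. This probe was detected in every control and in 0 of 4 restricted fetuses, which puts controls at least 1.33-fold above restricted cells (-0.85 ± 0.12, limma adjusted p 0.357). A second ZNF331 probe was detected on 1 control array and no restricted array, so the bound holds for the first probe and not for the gene.

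CDKN1C, an imprinted inhibitor of the cell cycle, read 8.38, 8.41, 8.01 and 8.77 in controls and 8.07, 6.32, 6.75 and 6.98 in restricted cells. The restricted male, fetus restricted_9085, lay inside the control range and the 3 restricted females lay well below it. The difference was -1.37 ± 0.33 (limma adjusted p 0.814), or 2.58-fold. IGF2, the fetal growth factor read from the paternal copy, had the same arrangement, at 6.77, 6.89, 5.46 and 6.18 against 6.29, 4.63, 4.52 and 4.67 (-1.30 ± 0.43, limma adjusted p 0.981). Its second probe differed by -0.70 ± 0.18, and each IGF2 probe was detected on 4 control arrays and 1 restricted array. H19, the noncoding neighbour of IGF2, differed by -1.02 ± 0.48 and the zinc finger gene PEG3 by -0.53 ± 0.29, both with overlapping groups. PLAGL1, an imprinted transcription factor, differed by -0.31 ± 0.11. NNAT, neuronatin, went the other way at 0.87 ± 0.47, and was 1.34 without fetus restricted_2820.

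The insulin-like growth factor list as a whole was balanced, with 12 of 23 tested genes higher, a median of 0.051 and 2 genes in each direction at an unadjusted p under 0.05. Stanniocalcin 2 (STC2), an inhibitor of the protease that frees the growth factors from their binding proteins, read 10.08, 10.38, 9.94 and 9.60 in controls and 10.80, 11.54, 10.34 and 10.62 in restricted cells (0.83 ± 0.25, limma adjusted p 0.981). The binding proteins differed in sign: IGFBP5 differed by 0.62 ± 0.25 and IGFBP3 by -0.51 ± 0.21, both with overlapping groups. The growth hormone receptor GHR read 4.69 to 5.55 in controls and 5.12, 5.17, 7.77 and 7.40 in restricted cells, so only fetuses restricted_9075 and restricted_9073 lay above the controls (1.10 ± 0.59).

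ERCC1, a subunit of the nuclease that cuts out damaged DNA, had 4 tested probes that disagreed. The probe with the smallest p read 6.43, 6.20, 6.24 and 6.36 in controls and 4.51, 4.85, 5.08 and 5.61 in restricted cells (-1.29 ± 0.20, limma adjusted p 0.357), and without fetus restricted_9073 it passed at -1.49 ± 0.14 (limma adjusted p 0.0388). A second probe read 8.90 to 9.02 in controls and 7.52, 5.77, 8.75 and 8.78 in restricted cells (-1.25 ± 0.57), with the distance carried by fetuses restricted_9085 and restricted_2820, and was at -0.60 without fetus restricted_2820. The remaining probes, with overlapping groups, differed by -0.26 ± 0.14 (-0.11 without that fetus) and 0.14 ± 0.09. Other genes of nucleotide excision repair showed small values, with 7 of 20 higher, a median of -0.087 and 0 at an unadjusted p under 0.05. ERCC2, a helicase of the same pathway, differed by 0.14 ± 0.09, and the damage sensor DDB2, detected on 3 control arrays and no restricted one, was at least 1.04-fold higher in controls.

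STARD5 and SPRING1 were lower on every restricted array than on any control array. STARD5, a sterol-binding transfer protein, read 9.16, 8.85, 8.86 and 8.90 in controls and 8.28, 8.10, 8.38 and 8.50 in restricted cells (-0.63 ± 0.11, limma adjusted p 0.433), and its second probe, also without overlap, differed by -0.50 ± 0.13. SPRING1, which is needed to activate the sterol-sensing factors SREBP, read 5.59 to 5.84 against 5.07 to 5.30 (-0.52 ± 0.10, limma adjusted p 0.433). The genes of cholesterol synthesis themselves were balanced, with 6 of 14 higher and a median of -0.040, and TM7SF2 (0.35 ± 0.21) and MSMO1 (-0.22 ± 0.14), enzymes of the late steps, differed in sign. Without fetus restricted_2820 they were at 0.24 and -0.13, and NSDHL went from -0.27 ± 0.17 to -0.08.

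CLYBL, a mitochondrial lyase tied to vitamin B12 metabolism, read 8.08, 8.38, 7.74 and 7.93 in controls and 6.83, 7.43, 7.37 and 7.12 in restricted cells (-0.85 ± 0.17, limma adjusted p 0.614). Its second probe repeated this without overlap at -0.71 ± 0.15. PCCA, a subunit of the propionyl-CoA carboxylase of the same organelle, read 7.85 to 8.12 against 6.98 to 7.59 (-0.69 ± 0.14, limma adjusted p 0.614). Genes of oxidative phosphorylation differed little: 8 of 28 were higher, the median was -0.090, and 0 had an unadjusted p under 0.05. Without fetus restricted_2820 their median was -0.026. The ATP synthase gene ATP5PB and the complex I gene NDUFB5 differed by -0.22 ± 0.11 and -0.19 ± 0.14, or -0.13 and -0.06 without that fetus. NDUFV2, another complex I gene, differed by 0.35 ± 0.19, although control_9017 read 11.26, above all restricted arrays at 10.91 to 10.99, and the other controls read 10.36 to 10.44.

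The remaining lower genes belong to protein handling, signalling and ion transport. ST13, a helper of the chaperone HSP70, had narrow groups, at 7.14, 7.20, 7.19 and 7.04 in controls and 6.74, 6.60, 6.69 and 6.62 in restricted cells (-0.48 ± 0.08, limma adjusted p 0.415). DOK5, an adaptor of receptor tyrosine kinases, differed by -0.72 ± 0.13 and FXYD6, a regulator of the sodium pump, by -0.85 ± 0.16 (limma adjusted p 0.433 for both). The deubiquitinase USP38 differed by -0.86 ± 0.18, the proteasome assembly factor PSMG3 by -0.85 ± 0.19 and the ubiquitin ligase adaptor KLHL2 by -0.83 ± 0.21, each without overlap. For ATF4, a transcription factor of amino acid stress, 1 probe was detected in the 4 controls and in 0 of 4 restricted fetuses (at least 1.3-fold higher in controls), but 2 other probes, detected on all 8 arrays, differed by 0.05 and -0.13. The list of amino acid and unfolded protein stress genes was balanced at 13 of 23 higher, with a median of 0.027 and a mean of -0.014, and MTHFD2 (-0.45 ± 0.19) was its only member with an unadjusted p under 0.05. It was at -0.24 without fetus restricted_2820. The chaperone gene CALR differed by 0.23 ± 0.11 and PHGDH, of serine synthesis, by -0.18 ± 0.11.

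Interferon response genes, which cells turn on after sensing a virus, were high on a single restricted omental array. Of 15 tested genes 14 were higher in restricted cells, with a median of 0.941, yet 0 had groups that did not overlap and 0 had an unadjusted p under 0.05. The mean of the list was 2.822 above the control mean in fetus restricted_2820 and -0.135 to 0.293 in the other 3 restricted fetuses, against -0.148 to 0.078 in controls. IFI6 read 7.98, 7.47, 8.27 and 8.08 in controls and 8.15, 12.27, 9.23 and 7.74 in restricted cells, a difference of 1.39, or 0.42 without fetus restricted_2820. IFI27, detected on no control array (4.31 to 4.61), read 6.72, 10.04, 5.13 and 4.45 in restricted cells, so fetus restricted_9073 lay in the control range. Its mean was at least 3.48-fold higher in restricted cells, but the fitted difference of 2.16 became 1.01 without fetus restricted_2820. IFI44 read 9.52 in fetus restricted_2820 and 4.52 to 5.05 on the other 7 arrays. Without fetus restricted_2820 the median of the list was 0.078, with 14 of 15 genes still above 0, and ISG20 was lower with and without that fetus (-0.64 and -0.74). On that array 20 list members were detected, against 5 to 13 on the others. The same fetus was also the highest of the 8 in its subcutaneous cells. IFI6 read 10.15 in its abdominal and 11.59 in its femoral cells, and IFI27 read 8.23 and 9.77.

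Antigen presentation genes, which load and display peptides on the cell surface, had a higher list mean on all 4 restricted arrays than on any control array. The mean of the list ran from 0.231 to 0.547 above the control mean in restricted cells and from -0.158 to 0.197 in controls. The lowest restricted array was thus close to the highest control. How far the separation rests on single members with a wide spread was not tested. Of 17 tested genes 11 were higher, with a median of 0.289 (0.159 without fetus restricted_2820), and 4 had an unadjusted p under 0.05, all higher. TAP1, a pump that carries peptides into the endoplasmic reticulum, read 8.62, 8.61, 8.56 and 8.57 in controls and 8.89, 9.31, 9.12 and 8.84 in restricted cells. The control arrays were within a range far smaller than the distance to the restricted ones, and the difference was 0.45 ± 0.11 (limma adjusted p 0.861), or 0.36 without fetus restricted_2820. PSMB8, an immunoproteasome subunit, read 5.62 to 6.06 against 6.11, 7.37, 6.61 and 6.10 (0.72 ± 0.26, and 0.45 without fetus restricted_2820), and TAP2, the partner of TAP1, differed by 0.52 ± 0.21.

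Class I surface molecules did not give a single picture. A probe named for the class I pseudogene HLA-H read 10.07, 10.43, 9.37 and 8.74 in controls and 11.21, 12.16, 10.95 and 11.19 in restricted cells (1.72 ± 0.38, limma adjusted p 0.676), and its second probe differed by 1.06 ± 0.36 with overlap. HLA-F differed by 1.25 ± 0.46 and HLA-C by -0.20 ± 0.39 (-0.50 without fetus restricted_2820), and HLA-B was detected on 1 control array and no restricted array. HLA-E was split within both groups, at 4.64, 4.37, 9.07 and 4.53 in controls and 6.99, 4.97, 10.30 and 9.17 in restricted cells. These genes are near copies that vary between individuals, and which baboon transcript each human probe binds was not tested. Their shared partner B2M differed by 0.21 ± 0.14.

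**Figure D3:**
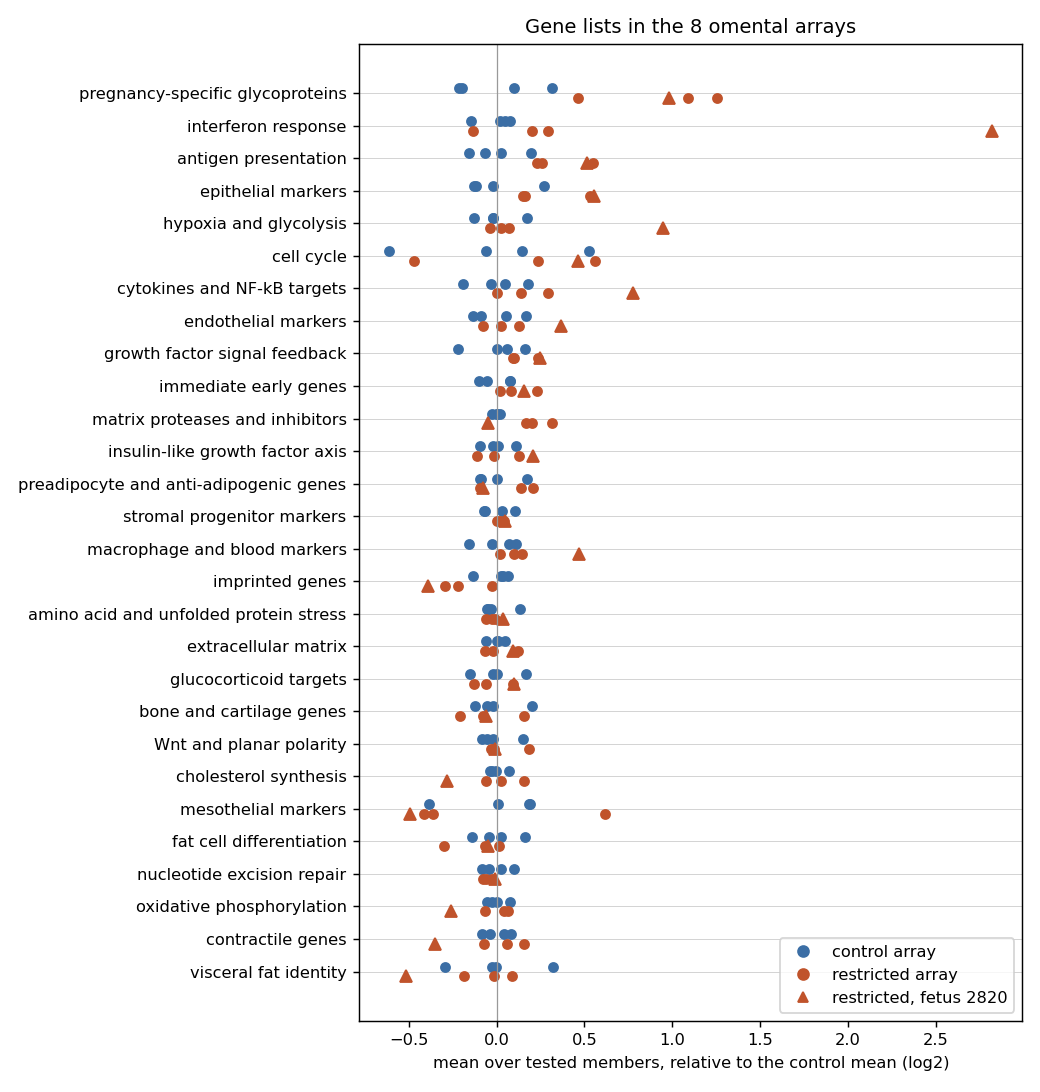
Mean level of the tested members of 28 gene lists on each omental array, relative to the mean of the 4 control arrays (x axis, log2), with controls in blue, restricted arrays in orange and fetus restricted_2820 as a triangle. The interferon mean of fetus restricted_2820 lies at 2.82 and its hypoxia mean at 0.948, far from the other restricted arrays, while in the glycoprotein and antigen presentation lists all 4 restricted arrays lie to the right of all controls.

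Genes of hypoxia and glycolysis and cytokine genes were also highest on the array of fetus restricted_2820. Of 29 tested hypoxia and glycolysis genes 24 were higher, with a median of 0.247, but the list mean was 0.948 in fetus restricted_2820 and -0.038 to 0.070 in the other restricted fetuses, and the median without fetus restricted_2820 was 0.046. LDHA, a glycolytic enzyme, differed by 0.40 ± 0.16 (0.30 without that fetus), and the hypoxia-induced genes NDRG1 and BNIP3 by 0.42 ± 0.19 and 0.45 ± 0.22 (0.28 and 0.21 without that fetus). Of 18 cytokine and NF-kB genes 14 were higher, with a median of 0.163 (0.111 without fetus restricted_2820). The interleukin gene IL6 read 8.18, 10.69, 10.30 and 9.77 in controls and 10.71, 11.76, 11.45 and 9.97 in restricted cells (1.24 ± 0.55). That difference was 0.98 without fetus restricted_2820 and 0.72 without control_9017, the lowest control. CXCL8, a neutrophil chemokine, read 10.42 in fetus restricted_2820 and 4.57 to 5.75 on the other 7 arrays. That fetus was also the highest for CXCL8 in abdominal (13.96) and femoral cells (12.34). LIF differed by 0.45 ± 0.21, or 0.28 without control_9017, and NFKB2 by 0.30 ± 0.15.

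Cell cycle genes varied as much within a diet as between diets. Of 28 tested genes 24 were higher and 0 had an unadjusted p under 0.05, and the list mean ran from -0.610 to 0.527 in controls and from -0.468 to 0.559 in restricted cells. The median of 0.237 became 0.092 without fetus restricted_2820 and ranged from 0.013 to 0.484 with any 1 fetus left out. KIF11, a spindle motor, differed by 0.31 ± 0.25, BUB1B by 0.13 ± 0.11 and CENPE by 0.27 ± 0.23, and KIF11 and CENPE were at 0.14 and 0.11 without fetus restricted_2820.

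Immediate early genes and growth factor feedback genes had small positive medians. Of 21 immediate early genes 16 were higher, with a median of 0.108 (0.089 without fetus restricted_2820), and 3 had an unadjusted p under 0.05, all higher: KLF4 (0.65 ± 0.22), KLF10 (0.35 ± 0.14) and the matrix-associated factor CCN2 (0.32 ± 0.14). KLF4, a zinc finger factor, read 8.35, 7.78, 7.27 and 7.62 in controls and 8.11, 8.46, 8.68 and 8.36 in restricted cells, where only the males broke the order of the groups. Of 13 feedback genes 10 were higher, with a median of 0.115. Without fetus restricted_2820 8 were higher, and without control_9017 the median was 0.019. ETV4, a target of fibroblast growth factor signalling, read 4.66, 5.49, 5.88 and 5.40 against 5.98, 6.29, 6.34 and 6.22 (0.85 ± 0.22, limma adjusted p 0.98), and its second probe differed by 0.54 ± 0.22 with overlap. ETV5 and PHLDA1 differed by 0.37 ± 0.19 and 0.29 ± 0.13, and PHLDA1 was at 0.17 without fetus restricted_2820.

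Genes of fat cell formation differed little as a group. Of 21 tested genes of fat cell differentiation 6 were higher and 15 lower, with a median of -0.067, and 2 had an unadjusted p under 0.05, both lower. The median ran from -0.126 to -0.002 with any 1 fetus left out and was nearest to 0 without restricted_9075. LPIN1, a phosphatase of triglyceride synthesis, read 6.56, 6.72, 6.66 and 6.78 in controls and 6.37, 6.26, 6.55 and 6.41 in restricted cells (-0.28 ± 0.09). KLF15 differed by -0.31 ± 0.11. PPARG, the master regulator of the program, read 10.20, 10.66, 10.00 and 10.13 against 10.12, 9.80, 8.94 and 10.22, so that fetus restricted_9075 was low and the rest lay near the controls (-0.48 ± 0.27, and -0.36 ± 0.24 on its second probe). Its partner CEBPA was detected on 1 control array and no restricted array. Preadipocyte and anti-adipogenic genes were near balance, with 12 of 18 higher and a median of 0.048, and WNT2, a secreted ligand, differed by -0.19 ± 0.09. ICAM1, an adhesion receptor, was detected on 1 restricted array and no control array.

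Visceral identity genes, which mark progenitors of deep fat, did not share a direction. Of 8 tested genes 3 were higher and 5 lower, with a median of -0.099. FOXF1, a forkhead factor of gut mesenchyme, was dim and read 4.89, 5.11, 4.89 and 4.91 in controls and 5.48, 5.69, 5.66 and 5.22 in restricted cells (0.56 ± 0.12, limma adjusted p 0.647). HAND2, a bHLH factor, read 8.42, 8.29, 8.15 and 8.60 against 7.84, 7.67, 8.26 and 7.90 (-0.44 ± 0.14), with fetus restricted_9075 inside the control range. TCF21, another bHLH factor of mesenchyme, read 4.53 and 5.78 in fetuses restricted_2820 and restricted_9073 and 6.70 to 7.41 on the other 6 arrays, and its second probe differed by -0.77 ± 0.36 (-0.44 without fetus restricted_2820). WT1 differed by -0.32 ± 0.26 (-0.19 without that fetus) and the homeobox gene NKX3-2 by -0.13 ± 0.23.

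Matrix genes differed little as a group. Of 36 extracellular matrix genes 19 were higher, with a median of 0.025. Their exception was COL15A1, a collagen near basement membranes, at 7.24, 7.53, 7.30 and 7.41 in controls and 7.97, 8.13, 8.90 and 7.83 in restricted cells (0.83 ± 0.21, limma adjusted p 0.88). Tenascin C (TNC) differed by 0.43 ± 0.21 on 1 probe and 0.04 ± 0.15 on another, and COL5A1 by -0.25 ± 0.13. Of 17 matrix proteases and inhibitors 12 were higher, with a median of 0.081, and 3 had an unadjusted p under 0.05, all higher. They were the inhibitor TIMP3 (5.66 to 6.07 against 6.07 to 6.46, 0.42 ± 0.12), the protease MMP10 (0.87 ± 0.34) and the urokinase receptor PLAUR (0.81 ± 0.33). Contractile genes were lower in 12 of 19 cases with a median of -0.090, which was 0.026 without fetus restricted_2820, and CNN2, ACTG2 and CNN1 differed by -0.23, -0.40 and -0.36. CNN1 was at -0.16 without that fetus, and ACTG2 at -0.21 without restricted_9075.

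Bone and cartilage genes were split, with 7 of 15 higher and a mean of -0.047. Beside TNFRSF11B, the small matrix proteoglycan OGN read 9.86, 9.17, 7.74 and 8.84 in controls and 8.82, 6.93, 7.66 and 7.14 in restricted cells (-1.26 ± 0.50), and the homeobox gene MSX1 differed by -0.46 ± 0.22. Glucocorticoid targets gave no lean, with 9 of 17 higher, a median of 0.010 and 0 at an unadjusted p under 0.05, and FKBP4, GLUL and ANGPTL4 differed by -0.40 ± 0.28, 0.21 ± 0.13 and -0.18 ± 0.11.

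Many markers of other cell types were not detected. Of 15 macrophage and blood genes on the array 11 were detected on no omental array, among them PTPRC, CD163 and CSF1R, and the mean of the 4 tested ones was -0.155 to 0.111 in controls and 0.022 to 0.472 in restricted cells, highest in fetus restricted_2820. CD14 read 7.84 in that fetus and 5.70 to 6.55 elsewhere (0.78 with and 0.42 without that fetus), while CD68 and CD79A differed by -0.14 ± 0.13 and 0.06 ± 0.09. Of 12 endothelial genes 5, including CDH5 and CLDN5, were detected on no array, and the mean of the 8 tested ones was -0.134 to 0.165 in controls and -0.080 to 0.364 in restricted cells. TEK, the angiopoietin receptor, read 4.78, 4.54, 5.07 and 4.64 in controls and 5.13, 5.92, 5.24 and 5.33 in restricted cells (0.65 ± 0.18), while ERG differed by -0.19 ± 0.11. TIE1 was detected on 2 restricted arrays and no control array, too dim for a bound above 1. Their part in the differences above was not tested, and in an array of pooled RNA fewer cells of a type and less RNA per cell cannot be told apart.

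Of 13 mesothelial genes 8, among them MSLN, KRT8 and KRT18, were detected on no omental array, and the mean of the 5 tested ones was -0.387 to 0.192 in controls and -0.490 to 0.615 in restricted cells. CALB2 read 9.11, 8.37, 9.24 and 8.02 in controls and 7.12, 6.70, 9.49 and 7.10 in restricted cells (-1.08 ± 0.57), and KRT19 differed by 0.62 ± 0.48. Of 12 epithelial genes 6 were detected on no array, and all 5 tested ones were higher, with a median of 0.286 and a mean of -0.129 to 0.272 in controls against 0.149 to 0.555. EPCAM read 7.07 and 6.10 in fetuses restricted_2820 and restricted_9073 and 4.84 to 5.56 on the other 6 arrays (0.73 with and 0.30 without fetus restricted_2820). KRT14 differed by 0.23 ± 0.19, or 0.42 without that fetus. CDH1, detected on 2 restricted arrays and no control array, was at least 1.21-fold higher in restricted cells.

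The same genes were read in subcutaneous cells of the same 8 fetuses. The depots therefore share their animals, and their values stand side by side here and are not independent. In abdominal cells limma called 0 probes, with 824 (4.87%) at an unadjusted p under 0.05 and 531 (3.14%) without overlap, and in femoral cells 0, with 1050 (6.20%) and 658 (3.89%). Of the 24 genes with the smallest omental p, all but FOXF1 and SPRING1 had differences of the same sign in the 3 depots. Several of the subcutaneous differences were small beside their errors. FOXF1 differed by 0.56 in omental, 0.76 in abdominal and -0.04 in femoral cells, and SPRING1 by -0.52, 0.02 and -0.18. TNFRSF11B differed by 1.54 ± 0.32 in omental, 1.84 ± 0.32 in abdominal and 1.98 ± 0.41 in femoral cells, without overlap in any depot. MEG3 differed by -0.74 ± 0.12, -0.90 ± 0.30 and -0.76 ± 0.12 in that order, and the ERCC1 probe by -1.29, -1.15 and -1.46, again without overlap in any depot. PSG3 differed by 1.58, 1.98 and 1.22 and C19orf33 by 1.57, 1.42 and 1.61. In each depot every control array, and not 1 restricted array, detected the ZNF331 probe.

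The test of whether the diet difference itself differed between depots called no probe, with or without the fetus as a block. Counts and p values here are from the fit without the block, which ignores that each fetus gave both depots. With the block, 583 and 688 probes had an unadjusted p under 0.05 for the abdominal and the femoral contrast. The order of genes also changed. HLA-H, omental against femoral, went from an unadjusted limma p of 0.161 to 0.00028 (adjusted p 0.678). For omental against abdominal cells limma called 0 of 16933 (0%), with 330 (1.95%) at an unadjusted p under 0.05, and for omental against femoral cells 0, with 392 (2.32%). Among probes with a gene symbol, the smallest p belonged to ARPP21, EGFL8, LINC02860 and HAND2 for the first contrast and to TNNT3, NAA35, MN1 and ABCG1 for the second contrast, with unadjusted p values of 7.64e-05 to 0.00187. Except for HAND2, these genes differed by less in omental cells than in the other depot. EGFL8 differed by 0.20, LINC02860 by 0.13, NAA35 by -0.15 and MN1 by -0.21 in omental cells, where the ARPP21 probe was detected on 1 array and those of TNNT3 and ABCG1 on none. HAND2 differed by -0.44 in omental, 0.27 ± 0.10 in abdominal and -0.03 ± 0.25 in femoral cells, and the omental minus abdominal contrast was -0.71 ± 0.18 (unadjusted p 0.00107, limma adjusted p 1). A probe with no gene symbol (ILMN_1780591) also differed by more in omental cells, by -0.85 ± 0.13 against 0.10 in abdominal cells, with a contrast of -0.94 ± 0.19 (unadjusted p 0.000141, limma adjusted p 1).

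Other genes had omental differences that were smaller or of opposite sign in at least 1 subcutaneous depot, none of them called by the test of that contrast. The median of the visceral identity list was -0.099 in omental, 0.569 in abdominal and -0.036 in femoral cells, and the second TCF21 probe differed by -0.77, 0.56 and -0.05. TEK differed by 0.65, -0.32 and 0.28, with an omental minus abdominal contrast of 0.97 ± 0.34 (unadjusted p 0.0132), and ROR1 by 0.57, -0.01 and 0.30 (contrast 0.58 ± 0.26, unadjusted p 0.0405). SPRING1 differed by -0.52, 0.02 and -0.18, with a contrast of -0.54 ± 0.20 (unadjusted p 0.0152). KLF4 differed by 0.65, -0.03 and -0.13 and IGFBP5 by 0.62, 0.09 and 0.05. PPARG differed by -0.48, 0.47 and -0.89, so the abdominal value had the opposite sign. The femoral difference of PPARG, without overlap, was larger than the omental one. For HLA-F the values were 1.25, 0.62 and 0.32, and with the fetus as a block the omental minus femoral contrast of 0.92 had an unadjusted p of 6.63e-05 (limma adjusted p 0.337). The limma adjusted p was 1 for all of these contrasts without the block.

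**Figure D4:**
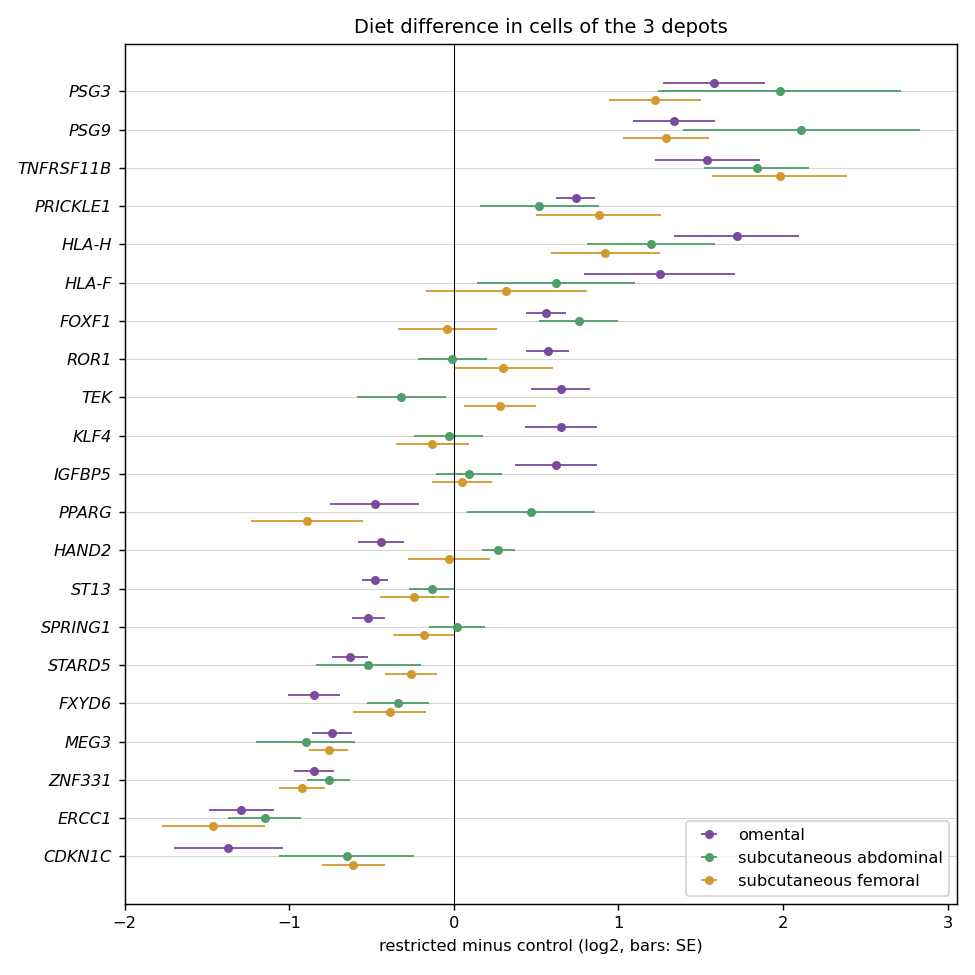
Restricted minus control difference (x axis, log2) of 21 genes in omental, subcutaneous abdominal and subcutaneous femoral cells of the same 8 fetuses, with bars for the standard error. For ZNF331, undetected on restricted arrays, the points are fitted values. PSG3, TNFRSF11B, MEG3, ZNF331 and ERCC1 lie on the same side in the 3 depots, while HAND2, TEK and PPARG have an omental value with the opposite sign to the abdominal one. So do KLF4, ROR1 and SPRING1, whose abdominal values are close to 0 (-0.03, -0.01 and 0.02).

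Some genes separated the restricted male from the restricted females. With the 3 females of each diet alone, limma called 3 of 16933 probes, those of HTR2B and ITGB1BP1 and one with no gene symbol (ILMN_1685985). HTR2B, a serotonin receptor, read 8.41, 7.58 and 7.89 in the control females and 4.78, 4.78 and 5.20 in the restricted females, and it fell by 3.04 ± 0.22 (limma adjusted p 0.015). The males lay the other way round, at 6.41 in the control and 7.92 in the restricted fetus, so over all 8 arrays the difference was -1.90 ± 0.70 (limma adjusted p 0.981). In abdominal cells HTR2B read 4.48 to 5.09 except for 7.68 in fetus restricted_2820, and in femoral cells 4.34 to 5.36, so its high level was found mainly in omental cells.

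ITGB1BP1, a protein that binds the tail of beta 1 integrin, read 8.05, 8.43, 7.89 and 8.80 in controls and 7.96, 5.27, 5.87 and 5.65 in restricted cells. Over all 8 arrays the difference was -2.10 (limma adjusted p 0.814). It fell by 2.78 ± 0.25 among females (limma adjusted p 0.0423), and it fell by 2.69 ± 0.23 without fetus restricted_9085 (limma adjusted p 0.032). Both of these fits leave out restricted_9085, the restricted array that read like the controls, so they are not separate evidence. The restricted male was also near the controls in the other depots, at 8.21 in abdominal and 8.23 in femoral cells, where the restricted females read 5.22 to 5.97. CDKN1C differed by -1.72 ± 0.23 among females (limma adjusted p 0.195), IGF2 by -1.57 ± 0.32 and KLF4 by 0.94 ± 0.16. With 1 male per diet, a difference between the sexes and a difference between individual fetuses cannot be told apart. LRRC1, a scaffold protein, was called only without fetus control_9087 (-1.53 ± 0.13, limma adjusted p 0.0392), the control that read 6.35 beside 8.01 to 8.39 in the others, and 2 further LRRC1 probes differed by -0.23 and 0.01.

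**Figure D5:**
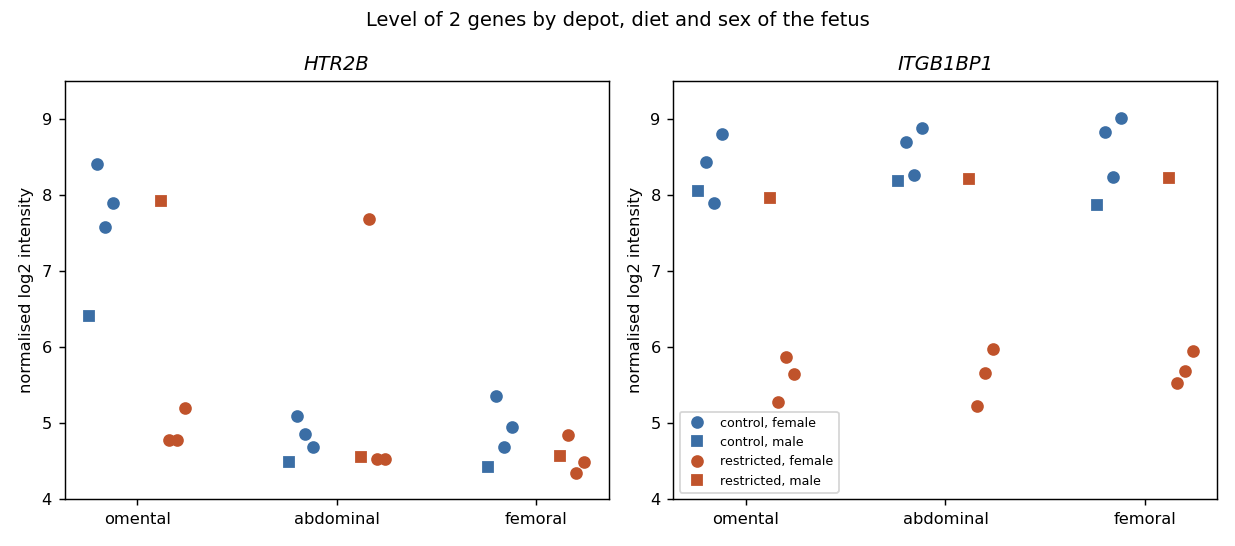
Normalised log2 intensity of HTR2B and ITGB1BP1 in the 3 depots, with control fetuses in blue, restricted in orange and males as squares. HTR2B is high in omental cells of the controls and of the restricted male (6.41 to 8.41) and low in the restricted females, and ITGB1BP1 is low in the 3 restricted females in every depot.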

How the data were processed

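The authors deposited, per the file headers, a background-subtracted average bead intensity for each of 48803 Illumina probes on each of 24 arrays, and a detection p-value for each probe and array. They also deposited quantile-normalised intensities on a linear scale, used as an alternative, whose columns kept the rank order of the scanner values and had a median of 2.90 or 2.91 on each array. Neither the labels nor the file headers name the scanner software or the chip of an array (not given in the sources used here), and chips were not tested as batches. The scale of the deposited normalised values is linear by their range, and the offset behind them stays unknown.

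The scanner intensities of all 24 arrays were processed together with neqc (normexp from the detection p-values, offset 16, quantile normalisation, log2) in limma 3.58.1 with statmod 1.5.0 on R 4.3.3. Summaries and plots used Python 3.11.15, pandas 2.3.3, numpy 2.4.6 and matplotlib 3.10.9. Probes detected at p under 0.05 on at least 4 arrays, 16933 in all, were tested with lmFit and eBayes on the arrays of 1 depot, or of both depots for the depot contrasts, and the code was tested on simulated data. The number of arrays, 4 per diet, limits the precision. Where a probe was detected on no array of 1 diet, the fold given is a lower bound: the mean of the other diet over the dim diet's mean, with each dim array raised to its lowest detected signal where the probe lay below that.

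Of all probes 28098 had 1 gene symbol in the platform annotation, 13 several and 20692 none, and 12863 tested probes gave 10228 genes, each represented in list counts by its brightest probe over the 24 arrays. The 28 gene lists held 666 genes, of which 629 were on the array and 463 were tested. The members and lists were chosen with earlier results of these data known, and lists carry no test. The genes named were the 12 with the smallest p in each direction, the 8 largest differences without overlap in each direction, the 3 smallest p in each list, 15 genes fixed by name, the 4 smallest p in each depot contrast and any gene called in an alternative with 5 or fewer calls, 115 genes in all. IFI44, PLAGL1, H19, NNAT, PEG3, NKX3-2, IGFBP3, GHR, COL6A1, ENO2, PSG2, TAP2, HLA-B, HLA-C, HLA-E, B2M, the probes without a symbol and the cell type markers given only as detected or not were named after their values were seen. Fetus numbers pair the depots, since they mark the same animal. Deviations from the group mean correlated between omental and other arrays of a fetus at 0.28 to 0.633, so the depot contrasts were also fitted with the fetus as a block. Alternatives covered the normalisation, the filter, sex, array weights, the model and leaving out each fetus.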

Additional observations from a re-analysis of the deposited data

Results flagged for a closer look

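Within each diet, 290 groups of 4 omental values (named probes and list means) were searched for an array set apart from the other 3 by Dixon's criterion for 4 values (0.829), and 23 were found. Chance alone marks about 1 in 20 such groups.

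Restricted_2820 was the separate array in 8 of the 23. It read above the other 3 restricted arrays for CXCL8 (10.42 against 4.89 to 5.57), CD14 (7.84 against 6.30 to 6.55), BNIP3 (6.24 against 5.21 to 5.31), PSMG3 (6.77 against 6.32 to 6.38) and USP38 (4.83 against 4.40 to 4.46), and below them for NSDHL (6.58 against 7.29 to 7.38). Its mean over the interferon list was 2.82 against -0.14 to 0.29, and over the hypoxia and glycolysis list 0.948 against -0.04 to 0.07.

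Restricted_9085, the male, read above the other restricted arrays for HTR2B (7.92 against 4.78 to 5.20), IGF2 (6.29 against 4.52 to 4.67), ENG (4.91 against 4.79 to 4.81) and the mean of the Wnt and planar polarity list (0.183 against -0.03 to -0.01). Restricted_9075 was set apart for CALB2 (9.49 against 6.70 to 7.12), ICAM1 (4.97 against 4.63 to 4.69) and the mesothelial mean (0.615 against -0.49 to -0.36). Restricted_9073 read 4.45 for TNNT3, where the others read 4.59 to 4.60, all of them undetected.

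Among controls, control_8011 read 5.56 for EPCAM (4.84 to 4.94 in the others), 7.06 for PHLDA1 (6.77 to 6.80) and 4.82 for the second IGF2 probe (5.49 to 5.52), and its mean over the amino acid and unfolded protein stress list was 0.134 (-0.06 to -0.03). Control_9087 read 5.11 for FOXF1 (4.89 to 4.91) and 5.75 for CXCL8 (4.57 to 4.66), and control_9017 read 11.26 for NDUFV2 (10.36 to 10.44).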

How the results depend on the processing

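In the omental comparison limma called 0 probes under 12 of 14 other settings of the normalisation, filter, sex and model, with 506 to 2263 probes at an unadjusted p under 0.05. It called 2 in the fit of all 24 arrays with no replicate block (ZNF331 and a probe without a symbol) and 3 with females only. With the fetus as a random replicate block it called 0 (867 at an unadjusted p under 0.05). Leaving out 1 fetus gave 0 to 2 calls: 2 without restricted_9073, 1 each without restricted_9085 and control_9087, and 0 for each of the other 5. The depot contrasts called 0 under each alternative run, the fetus block included, which pairs the arrays of an animal and gave 583 and 688 probes at an unadjusted p under 0.05 against 330 and 392 without it.

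Differences near 0 changed sign in places. ITGB1 went to -0.02 with median scaling, which moved the median of all probes to -0.069. The fitted value of ABCG1, undetected on all 8 arrays, went to -0.02 with females only and between -0.01 and 0.05 with 1 fetus left out, and the ATF4 probe at 0.05 went to -0.07 without control_9087. List medians that moved by more than the SD of the list's array means within a diet (pooled over both diets) were -0.366 for visceral identity with females only, 0.077 for Wnt without control_9017, 0.935 and 0.044 for the glycoproteins over all tested probes and with no filter, -0.021 for excision repair without control_9017 or without restricted_9075, 0.055 for epithelial markers with no filter and -0.194 for the 1 endothelial marker detected on all 8 arrays (ERG). The interferon list, whose SD includes restricted_2820, went from 0.941 to 0.078 without that fetus, within its SD. The causes were not tested. Probes undetected in 1 diet, such as PSG5 and ZNF671, have at most a lower bound on their fold.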

Other observations

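A few probes separated single fetuses or did not follow the diets. COL6A1, a collagen gene, read 8.07 in control_9017 and 11.82 to 12.11 on the other 7 omental arrays. The probe without a gene symbol that was called among females (ILMN_1685985) read 7.34 in the control male and 4.45, 4.53 and 4.51 in the control females, against 4.59 in the restricted male and 6.91, 7.64 and 7.72 in the restricted females. ENO2, a glycolytic enzyme, read 8.06 in restricted_2820 and 5.03 to 5.74 on the other 7 arrays.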
